A study of Mus musculus with 10 samples.

Results

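Mitochondrial ribosomal protein genes were examined in RNA-seq libraries of mouse pancreatic islets. They were taken by name, as every row of the deposited counts table whose Ensembl mouse gene identifier carries a symbol beginning Mrpl or Mrps followed by a digit, with pseudogenes (-ps) left out. This gave 78 genes of the 52178 in the table, 49 Mrpl genes named for the large subunit of the mitochondrial ribosome and 29 Mrps genes named for the small subunit. All 78 passed the filter on low counts, and 15298 genes were tested in all. The islets came from retired breeder male C57Bl/6 mice and were compared between a sedentary group (5 libraries, sedentary 1 to 5) and an exercise group (5 libraries, exercise 6 to 10). After 3 days of acclimatization the exercise group ran on a treadmill at 17 cm/s on an incline of 5 degrees, for 1 h on 5 days of each of 2 weeks. Islets of both groups were freed with collagenase, picked by hand and plated in medium with 11 mM glucose, and no age in weeks is given. No label names the animal behind a library, and p-values rest only on the spread among these libraries, part of which may be technical.

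The mitochondrial ribosome translates the few messenger RNAs of the mitochondrial genome, which encode core subunits of the respiratory chain and the ATP synthase. Its ribosomal RNAs are made inside the organelle, while all of its proteins are encoded in the nucleus, made in the cytosol and imported. The small subunit reads the messenger and the large subunit forms the peptide bond and passes the new protein to the inner membrane. In the beta cell, ATP from oxidative phosphorylation closes the potassium channel that starts insulin release, so this machinery stands upstream of glucose-stimulated secretion.

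Library totals lay between 15081800 and 23222600 estimated counts, and between 14464 and 42144 of these fell on the 78 genes. Levels are given as CPM, counts scaled to a library of 1000000, with library sizes adjusted by the trimmed mean of M-values (TMM). The libraries differed in their mix of tissues. A list of 40 genes of the intestinal epithelium summed to 23402, 36536, 7044, 4874 and 6762 CPM in sedentary 1 to 5 and to between 677 and 1484 CPM in the exercise libraries. All 40 were detected in every sedentary library, and 34 in every exercise library, where Mptx1 was at 0 throughout. A list of 14 beta cell genes, insulin among them, summed to 8261 and 37810 CPM in sedentary 1 and 2, and to between 135830 and 195311 CPM in the other libraries. Acinar genes (34 listed) summed to between 80701 and 158047 CPM in sedentary and between 164748 and 436361 CPM in exercise libraries. Sedentary 1 and 2 therefore stood apart from the islet label, and the main results are also given for the 8 libraries without them. In bulk RNA, fewer cells of a type and less RNA per cell cannot be told apart.

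Transcripts for mitochondrial ribosomal proteins were lower on average in exercise than in sedentary islets, and most of that difference lay in sedentary 1 and 2. Summed over the 49 Mrpl genes, the level was 1043, 1536, 704, 665 and 863 CPM in sedentary 1 to 5 and 702, 611, 627, 632 and 602 CPM in exercise 6 to 10. The 29 Mrps genes summed to 511, 765, 366, 372 and 466 CPM in the sedentary and 393, 331, 347, 364 and 350.3 CPM in the exercise libraries. Sedentary 2 was the highest library for both subunits and sedentary 1 the next, while sedentary 3 and 4 lay within or close to the exercise range and the groups overlapped. All 78 genes together summed to 1458 ± 516 CPM in sedentary and 992 ± 61.4 CPM in exercise libraries (mean ± SD, n = 5 each), a ratio of 0.680. As a share of each library's counts this was 0.163 ± 0.0525% and 0.0884 ± 0.0130%. Against sedentary 3 to 5 alone, at 1146 ± 159 CPM (n = 3), the ratio was 0.866.

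**Figure D1:**
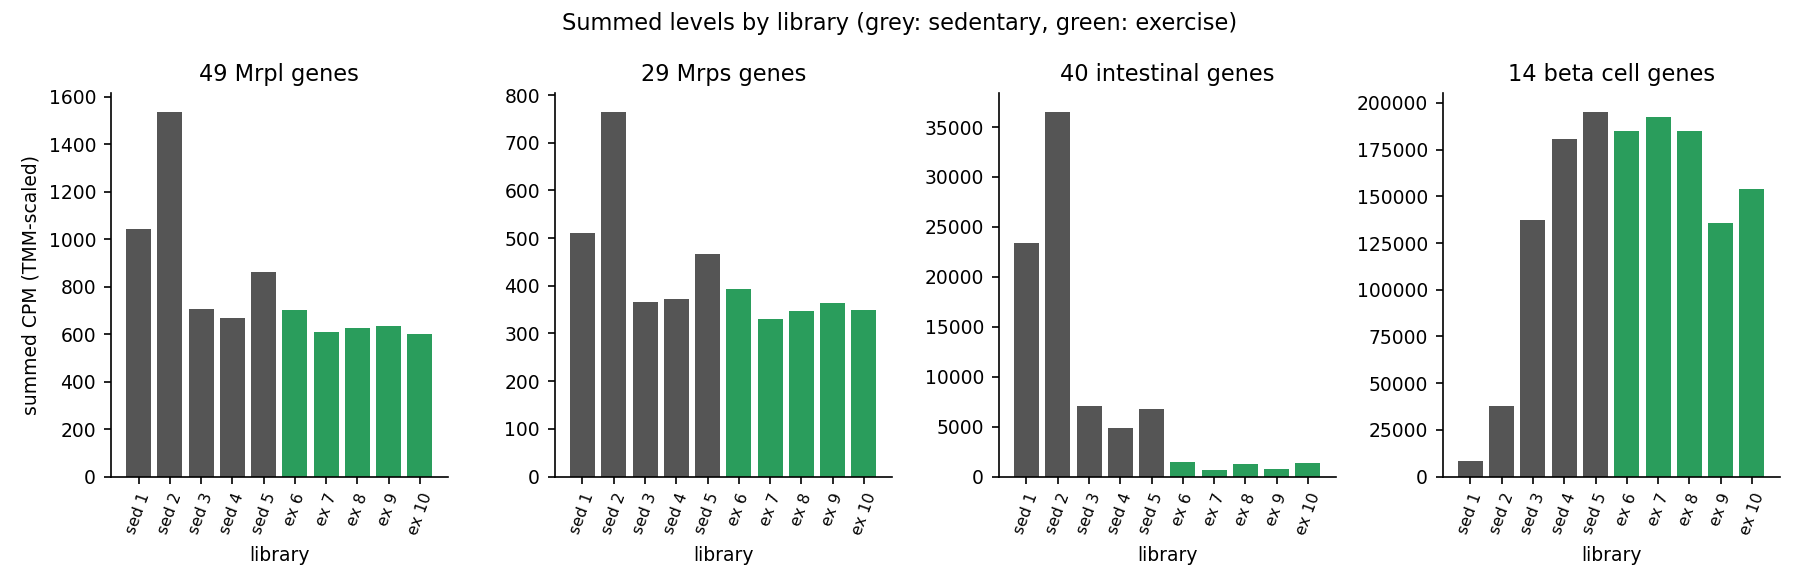
Summed CPM by library for the 49 Mrpl genes, the 29 Mrps genes, the 40 intestinal genes and the 14 beta cell genes, with sedentary libraries in grey and exercise libraries in green, 1 bar per library. Both ribosomal sums peak in sedentary 2 (1536 and 765 CPM), the library with the highest intestinal sum, and both are next highest in sedentary 1.

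Sedentary 2 held the highest level of 73 of the 78 genes, where 35.1% of all genes tested were highest in that library. An exercise library held the lowest level of 69 of the 78, against 38.0% of all genes tested. The exceptions at the top were Mrpl17, Mrpl33, Mrps12 and Mrps33, highest in sedentary 5, and Mrpl23, highest in exercise 10. The summed level of sedentary 2 was 2.01 times the mean of sedentary 3 to 5. The intestinal and beta cell sums moved with the same libraries, and the acinar sums with the group. Intestinal sums also differed by group without sedentary 1 and 2, at 4874 to 7044 CPM in sedentary 3 to 5 and 677 to 1484 CPM in exercise. In those 8 libraries 36 of 39 intestinal genes tested were lower (edgeR, background 8.68%), with a median log2 fold change of -3.11. The 8 libraries are thus not free of this difference in tissue. The part of these sums in the result was not tested.

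**Figure D2:**
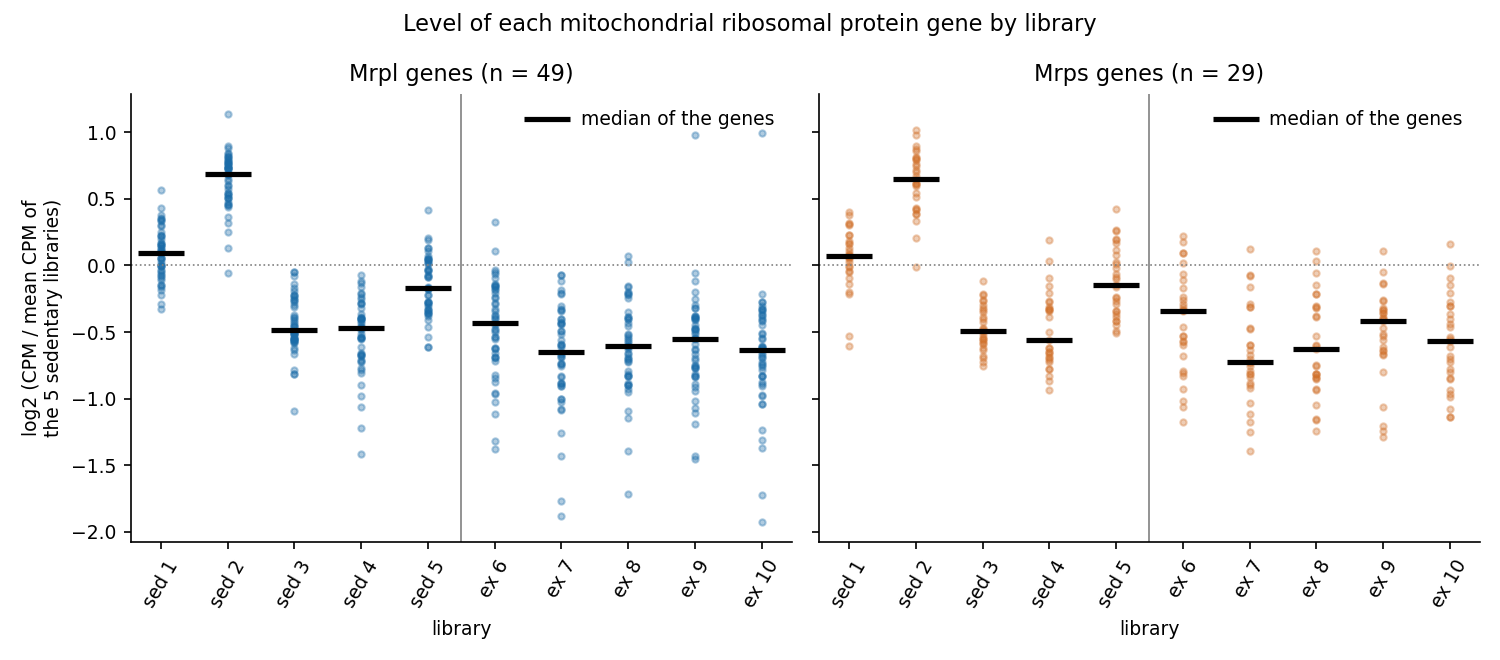
Level of each gene by library, as log2 of its CPM over its mean in the 5 sedentary libraries, for the 49 Mrpl genes (left) and the 29 Mrps genes (right); each point is 1 gene and the black bar the median of the genes. The points of sedentary 2 lie almost wholly above 0, and the exercise medians lie near those of sedentary 3 and 4.

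Of the 78 genes, 0 were higher and 8 were lower in exercise (edgeR quasi-likelihood test over 15298 genes, Benjamini-Hochberg adjusted p under 0.05), and 70 did not pass. Over all genes tested, 11.4% were lower and 2.44% higher, so the share of 8 in 78 was near the background. At an unadjusted p under 0.05, 45 were lower and 0 higher, against 22.5% and 10.8% of all genes. The log2 fold change was below 0 for 75 of 78, against 50.0% of all genes. Its median was -0.57 with quartiles of -0.76 and -0.37, beside a median of 0.00 over all genes with quartiles of -0.53 and 0.40. The SD of log2 fold changes was 0.34 over the 78 genes, against 1.14 over all genes. It was alike in complex I genes (0.32), so this closeness is not particular to the members. Genes with symbols beginning Rpl or Rps and a digit had an SD of 0.36. That rule also admits genes outside the cytosolic ribosome, such as those of S6 kinases. Each exercise library lay below each sedentary library for 9 of the 78, where the share over all genes was 11.4%, near that of the members.

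Without sedentary 1 and 2 the median fell in size to -0.20, against 0.03 over all 15692 genes then tested. The change remained below 0 for 72 of 78 genes, against 46.9% of all genes. Only Mrpl47 passed (edgeR adjusted p = 0.0454), so 1 was lower and 0 higher, beside backgrounds of 8.68% and 4.10%, with 19 lower and 0 higher at an unadjusted p under 0.05, beside 15.1% and 13.2% of all genes. For 71 of 78 genes the log2 fold change was over 1.5 times larger in size with all libraries than without this pair. The same count of 9 genes had every exercise library below sedentary 3 to 5, with a background of 12.4%. Without sedentary 4 alone, 32 of 78 were lower (background 17.7%), and without sedentary 3 alone 19 were (background 13.4%). With edgeR and sedentary 5 left out 6 were lower (background 11.3%), with sedentary 2 left out 1 was (background 8.14%), and with sedentary 1 left out 0 were (background 6.84%). No member passed with exercise 6, 7, 8, 9 or 10 left out, where 6.55%, 5.32%, 5.16%, 5.61% and 6.18% of all genes were lower. DESeq2 called 26 of 78 lower (background 17.3%), 18 Mrpl and 8 Mrps genes, limma-voom called 0 (background 2.22%, smallest adjusted p = 0.0930) and edgeR with library totals alone called 67 (background 28.8%). With no filter edgeR called 5 (background 6.20%). With the acinar level as a covariate it called 0, as it did over all genes (0.00%), while the log2 fold changes of the 8 genes were then -0.73 to -1.64 in place of -0.90 to -1.65.

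**Figure D3:**
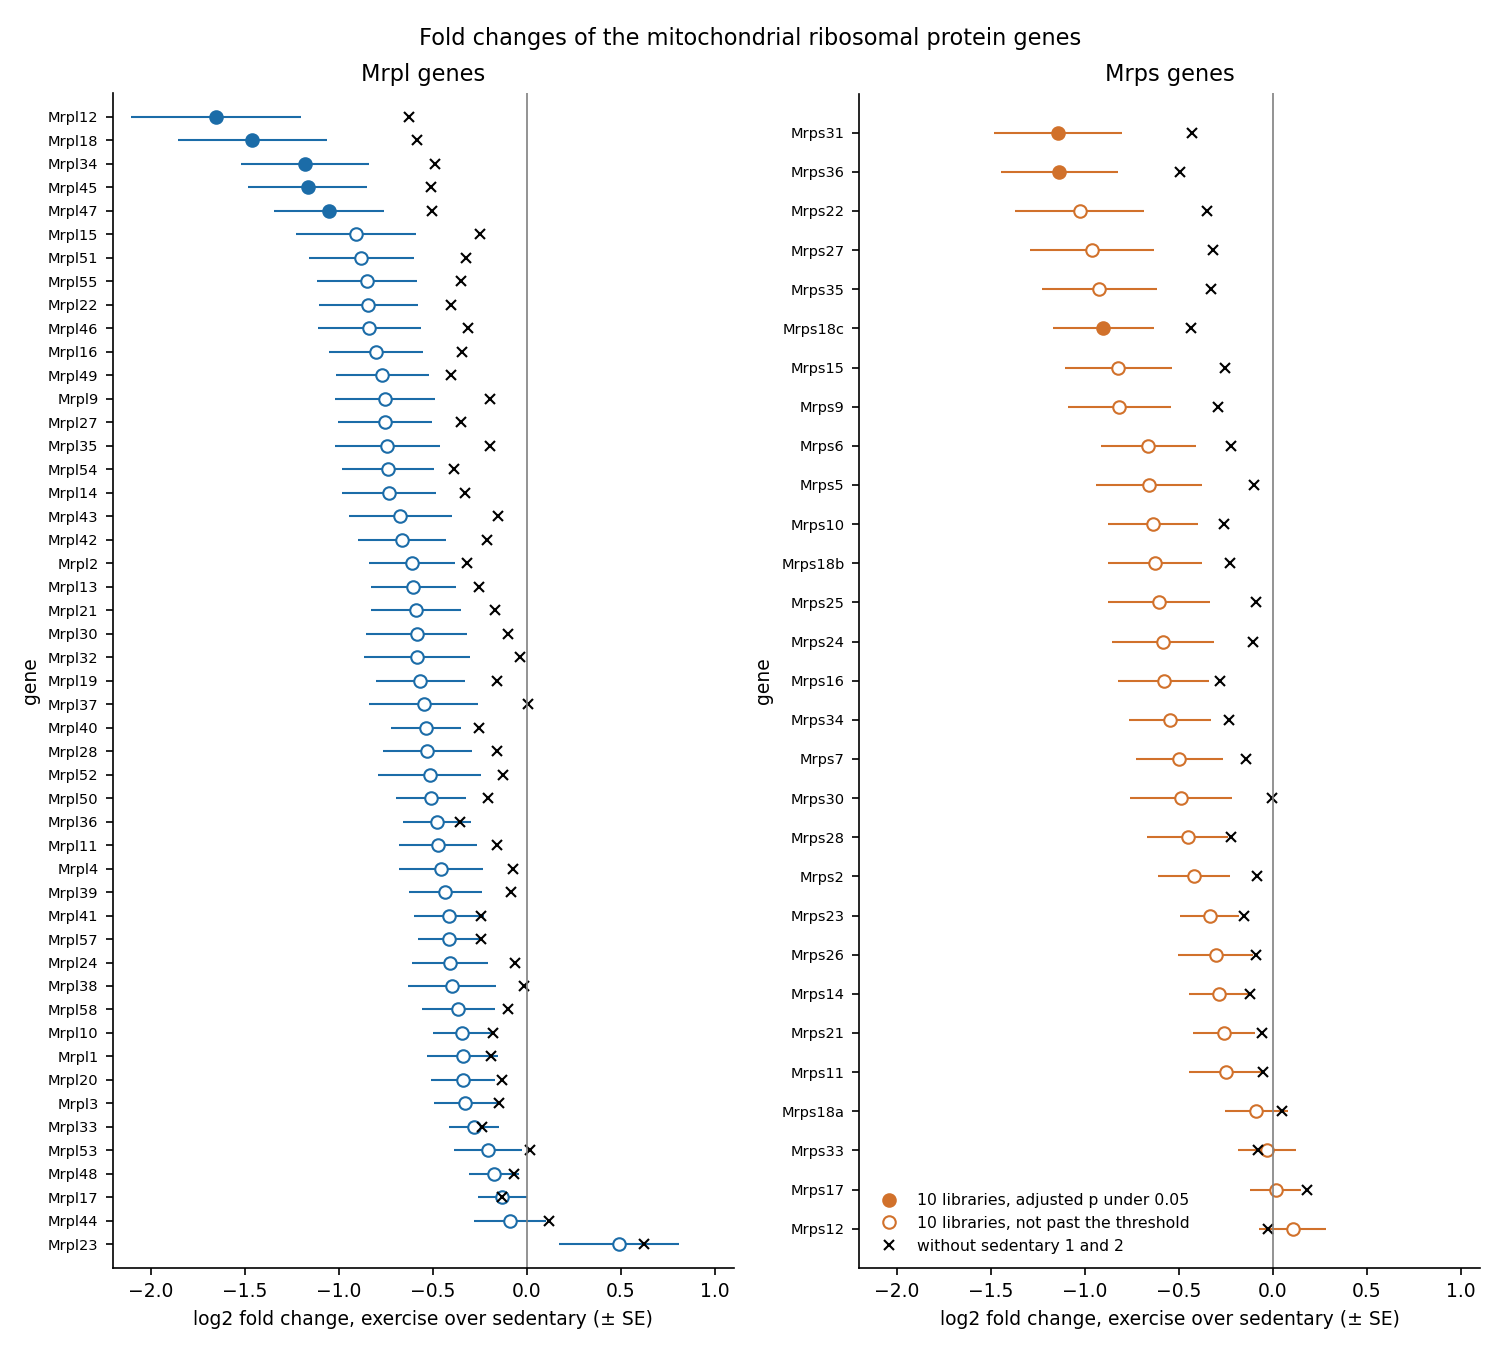
Log2 fold change of exercise over sedentary for each Mrpl gene (left) and Mrps gene (right), with its SE; filled circles are genes past an adjusted p of 0.05 with all 10 libraries, open circles the others, and crosses the same gene without sedentary 1 and 2. Circles run from -1.65 for Mrpl12 to 0.49 for Mrpl23, and most crosses lie between the circle and 0.

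Promoter sequence was read for genes at both ends of the range of change, the 2 deepest falls (Mrpl12 and Mrpl18) and the 2 highest values apart from the uncertain Mrpl23 (Mrps12 and Mrps17). The 160 bases before the annotated start are given 5′ to 3′ on the gene's strand, from RefSeq (GRCm38.p6), and capitals mark matches to CCGGAA (the core of ETS factor sites, the family of Gabpa) or CCAAT on either strand. They lie at chr11:120484477-120484636 (plus strand), chr17:12916092-12916251 (minus strand), chr7:28741822-28741981 (minus strand) and chr5:129715337-129715496 (plus strand).
Mrpl12: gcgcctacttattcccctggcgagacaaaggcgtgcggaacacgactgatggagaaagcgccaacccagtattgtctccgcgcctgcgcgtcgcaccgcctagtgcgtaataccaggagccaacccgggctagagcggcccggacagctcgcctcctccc
Mrpl18: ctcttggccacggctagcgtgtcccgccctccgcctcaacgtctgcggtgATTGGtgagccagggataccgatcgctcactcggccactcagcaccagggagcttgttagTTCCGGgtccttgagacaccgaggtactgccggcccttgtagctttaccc
Mrps12: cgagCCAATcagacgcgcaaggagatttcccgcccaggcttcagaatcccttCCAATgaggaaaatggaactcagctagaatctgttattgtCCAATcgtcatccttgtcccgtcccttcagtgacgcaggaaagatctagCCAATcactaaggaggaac
Mrps17: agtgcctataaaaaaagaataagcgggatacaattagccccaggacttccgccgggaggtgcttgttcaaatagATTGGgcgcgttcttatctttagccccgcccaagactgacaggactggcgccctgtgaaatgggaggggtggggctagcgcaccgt

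These stretches differ in the motifs they hold. Mrpl12 has no match, Mrpl18 has an ETS core on the minus strand and a CCAAT on the minus strand, Mrps12 has 4 CCAAT matches and Mrps17 has 1. Of the 78 genes, 69 had an entry in the promoter table, read as the first window listed, from 250 bases before to 50 bases after the start. CCGGAA or its complement was in 39 of these 69 windows (56.5%), against 26.4% of the 11487 windows of genes tested. AAGATGG, the core of YY1 sites, was in 13 (18.8%, against 6.82%), and GCGCATG, part of the NRF1 site, in 8 (11.6%, against 6.63%). CCAAT was in 27 (39.1%, against 38.4%). Both strands were searched. Of the 8 genes that fell, 4 held the ETS core, 3 held CCAAT and 0 held either of the others. By subunit the ETS core was in 24 of 43 Mrpl and 15 of 26 Mrps windows. A match of letters is a description of the window and not a site shown to be bound.

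Large-subunit genes held the deepest changes. Mrpl12 (ENSMUSG00000039640) encodes a protein of the stalk that recruits translation factors, and it also binds the mitochondrial RNA polymerase. Its level in sedentary 1 to 5 was 62.5, 106, 22.5, 18.01 and 31.5 CPM, and in exercise 6 to 10 it was 18.4, 13.02, 14.6, 17.6 and 12.6 CPM. Sedentary 1 and 2 were the high libraries, and sedentary 4 lay within the exercise range. The fold change was -1.65 ± 0.45 SE in log2 (edgeR adjusted p = 0.0373), and -0.63 without sedentary 1 and 2 (adjusted p = 0.0606). The other stalk genes did not pass (values in 8 libraries here and below are log2 fold changes without sedentary 1 and 2). Mrpl10, which anchors the stalk proteins to the ribosome, was at 32.7 ± 7.51 CPM in sedentary and 25.8 ± 1.43 CPM in exercise (-0.34 ± 0.15 SE in log2, edgeR adjusted p = 0.150, and -0.18 in 8 libraries). Mrpl11, at the base of the stalk, was at 15.3 ± 4.59 and 11.01 ± 1.0998 CPM (-0.47 ± 0.21 SE, edgeR adjusted p = 0.139, and -0.16 in 8 libraries).

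Mrpl18 (ENSMUSG00000057388), a relative of the bacterial protein that holds the small ribosomal RNA of the central protuberance, followed Mrpl12 in size. Levels were 29.5, 37.1, 11.6, 8.55 and 13.1 CPM in the sedentary and 7.99, 5.86, 7.59, 8.76 and 6.05 CPM in the exercise libraries, a change of -1.46 ± 0.39 SE on the log2 scale (edgeR adjusted p = 0.0358). Sedentary 4, at 8.55 CPM, lay below exercise 9. Mrpl34 (ENSMUSG00000034880), a small basic protein with a bacterial relative, was at 21.9, 28.8, 9.26, 8.77 and 12.7 CPM in sedentary 1 to 5 and 8.38, 6.05, 8.86, 6.05 and 6.59 CPM in exercise 6 to 10 (-1.18 ± 0.34 SE, adjusted p = 0.0444), again with sedentary 4 inside the exercise range. Without sedentary 1 and 2 neither passed, at -0.59 and -0.49 (edgeR adjusted p = 0.0650 and 0.118).

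Mrpl45 and Mrpl47 fell with no overlap between the groups. Mrpl45 (ENSMUSG00000018882), which ties the ribosome to the inner membrane beside the exit of the peptide tunnel, was at 21.8, 30.7, 12.1, 8.68 and 12.4 CPM in sedentary 1 to 5. Its exercise values were 8.44, 7.16, 7.77, 8.18 and 6.64 CPM (-1.17 ± 0.32 SE, edgeR adjusted p = 0.0370). The change was -0.51 without sedentary 1 and 2 (edgeR adjusted p = 0.0535). The nearest values of the groups were 8.68 CPM in sedentary 4 and 8.44 CPM in exercise 6. Mrpl47 (ENSMUSG00000037531), the mitochondrial relative of bacterial L29 at the tunnel exit, was at 12.01, 20.8, 7.10, 7.13 and 9.30 CPM in sedentary and 5.20, 5.34, 5.93, 5.22 and 5.47 CPM in exercise libraries. The fold change was -1.05 ± 0.29 SE in log2 (edgeR adjusted p = 0.0402), and -0.50 without sedentary 1 and 2. Mrpl47 was the member past the threshold in both sets of libraries, and its exercise values spanned 5.20 to 5.93 CPM. Without sedentary 1 or exercise 6, 7, 8, 9 or 10 its call was lost (highest edgeR adjusted p = 0.0969), as were those of the other 7 members. In these runs the change itself stayed close to its size with all libraries, at -0.98 to -1.08 for Mrpl47 and -1.53 to -1.73 for Mrpl12. Without sedentary 2 it was smaller, at -0.71 for Mrpl47, which still passed (edgeR adjusted p = 0.0422), and -1.14 for Mrpl12.

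The other 44 Mrpl genes did not pass. Mrpl24, which lines the rim of the exit tunnel, was at 40.1 ± 12.4 CPM in sedentary and 30.2 ± 3.37 CPM in exercise (-0.41 ± 0.20 SE, edgeR adjusted p = 0.180, and -0.06 in 8 libraries). Mrpl58, a peptidyl-tRNA hydrolase built into the large subunit that frees stalled ribosomes, was at 17.4 ± 4.76 and 13.6 ± 1.91 CPM (-0.36 ± 0.19 SE, adjusted p = 0.209, and -0.10 in 8 libraries). Mrpl44 carries a ribonuclease III-like fold. Levels were 12.2, 18.3, 8.76, 11.2 and 14.1 CPM in sedentary and 12.6, 11.9, 13.5, 11.9 and 10.7 CPM in exercise libraries, with sedentary 3 the lowest of all 10 and a change of -0.09 ± 0.19 SE on the log2 scale (adjusted p = 0.748, and 0.12 in 8 libraries). Mrpl17, with a bacterial relative, overlapped across the groups, at 19.1, 24.4, 21.1, 21.3 and 25.7 CPM in sedentary 1 to 5 and 24.03, 21.2, 19.4, 19.4 and 17.8 CPM in exercise 6 to 10 (-0.13 ± 0.13 SE, adjusted p = 0.476, and -0.13 in 8 libraries).

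Among the Mrps genes, 3 fell and 26 did not pass. Mrps31 (ENSMUSG00000031533), a small-subunit protein found only in mitochondrial ribosomes, was at 21.2, 35.7, 11.3, 9.50 and 12.9 CPM in sedentary 1 to 5 and 8.94, 8.01, 8.11, 7.66 and 8.25 CPM in exercise 6 to 10. Every exercise library lay below every sedentary one. The change was -1.14 ± 0.34 SE (edgeR adjusted p = 0.0482), and -0.43 without sedentary 1 and 2 (adjusted p = 0.0540). Mrps18c (ENSMUSG00000016833), a small-subunit form of the bacterial S18 protein, was at 15.8, 22.1, 8.71, 8.38 and 12.8 CPM in sedentary 1 to 5. In exercise 6 to 10 it was at 7.82, 6.25, 6.56, 8.50 and 7.08 CPM (-0.90 ± 0.27 SE, edgeR adjusted p = 0.0496). Sedentary 4, at 8.38 CPM, lay below exercise 9, at 8.50 CPM, and the change was -0.43 without sedentary 1 and 2 (edgeR adjusted p = 0.133).

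Mrps36 (ENSMUSG00000061474) fell by a like amount but is not a ribosomal protein by present knowledge. Its product links the enzymes of the 2-oxoglutarate dehydrogenase complex of the citric acid cycle, and the gene keeps its older name. Levels were 21.4, 28.6, 11.1, 9.03 and 12.1 CPM in sedentary and 8.66, 6.25, 6.96, 7.15 and 8.30 CPM in exercise libraries, without overlap (-1.14 ± 0.31 SE, edgeR adjusted p = 0.0373). It was -0.50 without sedentary 1 and 2 (edgeR adjusted p = 0.0575). Of the 31-base stretches of its coding transcripts, 39.9% also occur in other genes, with 30.6% in the pseudogene Mrps36-ps1, so its level is uncertain.

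Mrps22, which is specific to mitochondrial ribosomes, missed the threshold, at -1.03 ± 0.34 SE in log2 (edgeR adjusted p = 0.0704, and -0.35 in 8 libraries). Levels were 10.9, 20.4, 5.99, 5.70 and 7.59 CPM in the sedentary and 4.47, 4.95, 5.75, 4.83 and 4.78 CPM in the exercise libraries. The groups overlapped only where sedentary 4, at 5.70 CPM, lay below exercise 8, at 5.75 CPM. Mrps6, a protein of the small-subunit platform with a bacterial relative, was at 8.02 ± 2.88 CPM in sedentary and 5.06 ± 0.655 CPM in exercise (-0.66 ± 0.25 SE, edgeR adjusted p = 0.102, and -0.22 in 8 libraries).

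A few small-subunit genes had log2 fold changes near 0. Mrps12, the relative of bacterial S12 at the decoding centre, was at 14.9, 22.4, 19.5, 25.8 and 30.3 CPM in sedentary 1 to 5 and 25.5, 24.5, 24.4, 21.8 and 25.2 CPM in exercise 6 to 10. Sedentary 1 was its lowest library and sedentary 5 its highest. Its printed stretch of promoter held 4 CCAAT matches, and its longer window an ETS core and a YY1 core as well. The fold change was 0.11 ± 0.18 SE in log2 (edgeR adjusted p = 0.679, and -0.027 in 8 libraries). Mrps33, specific to mitochondria, was at 18.2, 30.3, 24.2, 26.9 and 31.6 CPM in sedentary and 27.99, 24.9, 26.8, 23.9 and 24.6 CPM in exercise libraries (-0.03 ± 0.15 SE, edgeR adjusted p = 0.887, and -0.078 in 8 libraries). Mrps12 and Mrps33 were the 2 members lowest in sedentary 1, which was the lowest library for 30.5% of all genes tested. Mrps17, with a bacterial relative, was at 20.02, 24.7, 15.7, 18.4 and 19.4 CPM in sedentary 1 to 5 and 20.95, 18.6, 18.9, 21.1 and 19.5 CPM in exercise 6 to 10, the groups overlapping throughout (0.01 ± 0.14 SE, adjusted p = 0.946, and 0.18 in 8 libraries).

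The S18 family let its forms be compared within the same libraries. The bacterial ribosome has 1 such protein, while mammalian mitochondria have forms encoded by Mrps18a, Mrps18b and Mrps18c, of which the Mrps18a product sits in the large subunit in spite of its name. Mrps18c was the form that fell. Mrps18b was at 16.9 ± 6.52 CPM in sedentary and 10.96 ± 1.96 CPM in exercise (-0.63 ± 0.25 SE, edgeR adjusted p = 0.111, and -0.23 in 8 libraries). Mrps18a was at 16.2, 25.1, 15.5, 16.2 and 20.2 CPM in the sedentary and 21.7, 16.7, 16.9, 16.9 and 15.4 CPM in the exercise libraries (-0.09 ± 0.17 SE, edgeR adjusted p = 0.718, and 0.046 in 8 libraries), with exercise 6 above 4 of the 5 sedentary libraries. Mrps30, whose product is also a large-subunit protein, was at 16.03 ± 7.16 and 11.4 ± 1.87 CPM (-0.49 ± 0.27 SE, adjusted p = 0.225), and its change was -0.006 without sedentary 1 and 2. The differences between these forms were not tested.

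Set side by side, the large and small subunits had like medians, a difference that was not tested. The median log2 fold change was -0.57 over the 49 Mrpl genes, of which 5 fell, and -0.58 over the 29 Mrps genes, of which 3 fell. Without sedentary 1 and 2 the medians were -0.20 and -0.15, with 1 and 0 lower. With Mrps18a and Mrps30 counted as large-subunit genes and Mrps36 left out, they were -0.55 over 51 and -0.58 over 26 genes, and -0.19 for both in 8 libraries. Assigned in this way, 5 of the 51 (9.80%) and 2 of the 26 (7.69%) were lower with all libraries. By ancestry, the 46 genes classed as having a bacterial relative had a median of -0.58 with 5 lower. The 31 classed as specific to mitochondria, Mrps18a and Mrps18b among them though also S18 forms, had a median of -0.54 with 2 lower. In 8 libraries these medians were -0.19 and -0.21, with 1 and 0 lower. Percentages of genes lower, 10.2% of the Mrpl and 10.3% of the Mrps genes, both lay near the background of 11.4%.

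The sum of Mrps counts over that of Mrpl counts within a library does not depend on scaling between libraries. This ratio was 0.490, 0.498, 0.519, 0.560 and 0.540 in sedentary 1 to 5 and 0.559, 0.542, 0.553, 0.576 and 0.582 in exercise 6 to 10. The lowest were sedentary 1 and 2, and the groups overlapped through sedentary 4. Group means were 0.521 ± 0.0287 in sedentary and 0.563 ± 0.0165 in exercise (SD, n = 5 each), and 0.539 ± 0.0204 in sedentary 3 to 5 (n = 3). With Mrpl12 left out of the sum, a step chosen after seeing the data, the means were 0.546 ± 0.0216 and 0.576 ± 0.0174. Assigned by structure, they were 0.452 ± 0.0264 and 0.483 ± 0.0131.

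**Figure D4:**
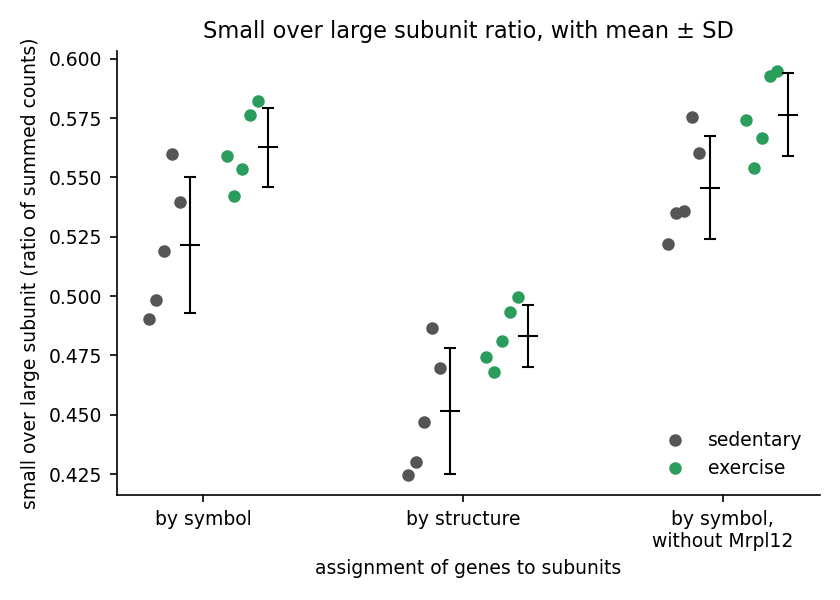
Ratio of summed small-subunit to summed large-subunit counts in each library (grey: sedentary, green: exercise; black: mean ± SD, n = 5), with genes assigned by symbol, by structure, and by symbol without Mrpl12; the vertical axis does not start at 0. By symbol, the exercise libraries lie between 0.542 and 0.582 and the sedentary libraries between 0.490 and 0.560.

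Levels were compared between genes only per length, as CPM per kilobase of the median length of a gene's protein coding transcripts in GENCODE M21, averaged over the 10 libraries. The median over the 78 genes was 12.3 CPM per kilobase and the range 1.46 to 54.2. Mrps21, encoding a short small-subunit protein, was the highest at 54.2, followed by Mrpl42 at 40.1 and Mrpl20 at 39.4 CPM per kilobase. The lowest were Mrps25 at 1.46 and Mrpl19 at 1.97 CPM per kilobase, both with long annotated transcripts (6073 and 5000 bases). The labels do not name the annotation behind the counts, so these lengths may differ from those the counts rest on.

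Shared sequence limits what the counts of some genes mean. A median of 7.004% of the 31-base stretches of a gene's coding transcripts also occurred in transcripts of another gene, 22 of 78 genes shared none, and 6 shared over 50% (in GENCODE M21). Mrpl53 shared 100% with Gm42688, Mrps25 74.6% with Nr2c2, Mrps34 55.6% with Mapk8ip3, and Mrps18b 59.6% with several genes, mostly Gm16279. Mrpl27 shared 54.0% in all. Among genes called lower besides Mrps36, Mrps18c shared 32.3%, Mrpl47 20.3%, Mrpl18 19.8%, Mrpl12 18.5% and Mrpl45 13.4%, while Mrpl34 and Mrps31 shared none. Mrpl24 shared 39.0% and Mrps6 33.8%, so these levels carry a like limit. Mrpl23, a protein of the tunnel exit, was at 1.97, 2.57, 1.44, 1.55 and 2.74 CPM in sedentary and 2.57, 1.95, 1.78, 4.06 and 4.10 CPM in exercise libraries, with the highest log2 fold change of any member (0.49 ± 0.32 SE, edgeR adjusted p = 0.286, and 0.62 in 8 libraries). Its copy Mrpl23-ps1, which holds 53.0% of its stretches, was at 10.9, 14.7, 9.76, 10.02 and 10.6 CPM in sedentary and 11.96, 8.92, 9.95, 9.27 and 8.69 CPM in exercise libraries. Summed, both rows gave 13.3 ± 2.43 CPM in sedentary and 12.7 ± 1.41 CPM in exercise (SD, n = 5 each). The direction of Mrpl23 alone is therefore uncertain.

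Proteins of the mitochondrial ribosome with other symbols did not pass. Ptcd3, Chchd1, Aurkaip1, Dap3 and Gadd45gip1 encode subunits outside the naming rule. Of these 5, 0 passed, beside backgrounds of 11.4% lower and 2.44% higher. Their log2 fold changes were -0.61, -0.34, -0.36, -0.23 and -0.15. Without sedentary 1 and 2 they were -0.098, -0.11, -0.029, 0.041 and -0.067, and their median went from -0.34 to -0.067. The largest of them, that of the pentatricopeptide protein gene Ptcd3, came from 27.4, 40.9, 18.03, 15.7 and 17.3 CPM in sedentary against 16.1, 16.6, 14.2, 15.7 and 15.6 CPM in exercise libraries (edgeR adjusted p = 0.127), with sedentary 1 and 2 high. The ribosomal RNAs of the mitochondrial genome summed to 885, 1193, 325, 269.8 and 278 CPM in sedentary and 426, 247, 198, 248 and 263 CPM in exercise libraries, again highest in sedentary 1 and 2. All transcripts of the mitochondrial genome together, among them the messages this ribosome reads, summed to 73176, 68211, 28468, 27979 and 23943 CPM in the sedentary and 33377, 30909, 21193, 27559 and 26371 CPM in the exercise libraries.

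For genes that build or serve the mitochondrial ribosome, counts past the threshold stand beside backgrounds of 11.4% lower and 2.44% higher. Of 28 assembly factors, such as GTPases, helicases and RNA methyltransferases, 0 passed in either direction. At an unadjusted p under 0.05, 4 were lower and 1 higher, against 22.5% and 10.8% of all genes. The median of the 28 was -0.24, or -0.057 in 8 libraries. Of 15 translation factors and associated genes, 1 fell (6.67%) and 0 rose. Their median was -0.41, or -0.25 in 8 libraries, where the members' median was -0.20. The gene that fell was Tufm (ENSMUSG00000073838), the elongation factor that brings aminoacyl-tRNA to the ribosome. Levels were 81.1, 140.2, 39.3, 31.01 and 49.3 CPM in sedentary and 30.3, 24.9, 26.7, 30.3 and 26.6 CPM in exercise libraries (-1.30 ± 0.37 SE in log2, edgeR adjusted p = 0.0427), and passed without sedentary 1 and 2 as well (-0.50, adjusted p = 0.0472). Its groups did not overlap, with 30.3 CPM in exercise 6 and 31.01 CPM in sedentary 4.

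Of 16 genes of mitochondrial transcription and its nuclear regulators, 1 fell (6.25%, background 11.4%) and 0 rose. The gene that fell was Ppargc1a, the coactivator PGC-1alpha (-1.79, edgeR adjusted p = 0.0237, and -0.81 without sedentary 1 and 2). The median of the list was -0.06 with 5 of 16 above 0, and without sedentary 1 and 2 it turned to 0.11 with 11 of 16 above 0. Tfam, which packages and transcribes mitochondrial DNA, was at 24.1 ± 8.26 and 17.1 ± 1.08 CPM (edgeR adjusted p = 0.128; log2 fold change -0.49, and -0.15 in 8 libraries). Polrmt, the mitochondrial RNA polymerase, was at 19.7 ± 6.28 and 15.6 ± 1.58 CPM (adjusted p = 0.260; log2 fold change -0.33, and -0.0016 in 8 libraries). Nrf1 and Gabpa, transcription factors known to act on nuclear genes of mitochondrial proteins, had log2 fold changes of -0.17 and -0.05 and did not pass (edgeR adjusted p = 0.471 and 0.838). In 8 libraries they were 0.065 and 0.22. Polg, the mitochondrial DNA polymerase gene, passed toward exercise in the 8 libraries alone (0.38, edgeR adjusted p = 0.0490).

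Set beside other sets of genes, the mitochondrial ribosome had a median between those of Rpl and Rps genes and of respiratory complex I. Genes with symbols beginning Rpl or Rps and a digit (90 tested) had a median log2 fold change of -0.40, with 2 lower (2.22%) and 0 higher. This rule was meant for cytosolic ribosomal proteins. It also admits other genes, such as those of S6 kinases (Rps6k symbols), and leaves out Rplp and Rpsa symbols. Log2 fold changes in the set ran from -2.94 to 0.54. Complex I genes with Nduf symbols (38 tested) had a median of -0.81, with 12 lower (31.6%) and 0 higher. Over all genes tested, 11.4% were lower and 2.44% higher. Without sedentary 1 and 2 the median of the Rpl and Rps genes was -0.10 with 1 lower (1.11%). That of complex I was -0.34 with 4 lower (10.5%). The background was then 8.68% lower, and the median of the mitochondrial ribosome -0.20. With all 10 libraries, changes were below 0 for 94.4% of the Rpl and Rps, 97.4% of the complex I and 96.2% of the mitochondrial ribosomal genes. These differences between sets were not tested.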

How the data were processed

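The authors' deposited table gives estimated counts per Ensembl gene for 10 libraries (12.6% of values not whole, tolerance 1e-06). The submitters' processing notes name fastp and kallisto. Tool versions, genome build and annotation were not given in the sources used here. Per the labels' protocols, stranded mRNA libraries were made from islet RNA. Groups come from the sample titles, and symbols from a table of mouse gene names. Counts were rounded, filtered (edgeR 4.0.16, minimum count 10, minimum total 15), scaled by TMM and tested with edgeR's quasi-likelihood test in R 4.3.3, adjusted by Benjamini-Hochberg over all genes tested (threshold 0.05). A log2 fold change's SE is its size over the root of the F statistic. DESeq2 1.42.0, limma-voom (limma 3.58.1), other scalings, no filter, an acinar covariate and leave-outs were alternatives. The edgeR script was also run on simulated counts with known changes. Where the simulated difference was a factor of 2, the script found 12 out of 100. With a factor of 4 it found 69 out of 100, and it called 6 unchanged genes. Differences of a factor of 2 were thus mostly missed at this depth of replication. A gene that did not pass is therefore not shown to be unchanged.

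Members and lists were chosen with earlier results of these data known. Named members were those past the threshold with all 10 libraries or the 8 without sedentary 1 and 2, the 3 largest and 3 smallest log2 fold changes and the highest and lowest mean CPM of each subunit, and 12 set whatever they showed. From the other lists, genes past the threshold and Tufm, Tfam, Polrmt, Nrf1 and Gabpa were named. Others, such as Mrps25 and Mrps21 and the ratio without Mrpl12, were chosen after their values were seen.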

Additional observations from a re-analysis of the deposited data

Results flagged for a closer look

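Within the 5 exercise libraries, Mrps18a stood at 21.7 CPM in exercise 6, with the other 4 between 15.4 and 16.9 CPM. The gap to the next library took 0.761 of the range of the group, above the limit for a single distant value. Of 54 groups of 5 looked at, chance alone would give such a value in about 1 in 20, and 1 was found.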

How the results depend on the processing

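The count of 0 members higher in exercise held under each alternative run. The count of members lower, 8 with edgeR and TMM, was 26 with DESeq2, 67 with library totals alone, 5 with no filter, 1 without sedentary 1 and 2, and 0 with limma-voom or with the acinar covariate, which follows the group and left log2 fold changes of -0.73 to -1.64 for the 8. It ranged from 0 to 32 with each library left out in turn. Library totals shift the median of all genes to -0.34, and upper quartile scaling to 0.11. Without sedentary 1 and 2 the medians were -0.20 (Mrpl) and -0.15 (Mrps), and the log2 ratio of summed CPM was -0.21 in place of -0.56. Causes of these shifts were not tested. Without sedentary 2 alone they were -0.32, -0.32 and -0.33. The difference in subunit ratio, 0.041 in all libraries, was 0.023 without sedentary 1 and 2 and 0.033 to 0.051 with each library left out. The medians, the log2 ratio and the difference in subunit ratio were not computed with the acinar covariate. Under the other alternatives for which they were computed, these values moved by less than 1 SD between libraries, an SD that sedentary 1 and 2 widen. With library totals alone they came close to that limit. The medians were then -0.89 (Mrpl) and -0.92 (Mrps) and the log2 ratio -0.89, with SDs of 0.333, 0.350 and 0.337.

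Named members near 0, none of them called, changed sign. Mrpl44 was 0.12 without sedentary 1 and 2, 0.11 with the acinar covariate, 0.038 with upper quartile scaling, and -0.20 to 0.068 with libraries left out. Mrps18a was 0.046, 0.065 and 0.034 under these settings, and -0.17 to 0.043. Mrps33 was 0.28 with the acinar covariate, 0.071 with upper quartile scaling and -0.14 to 0.042. Mrps12 was -0.027 without sedentary 1 and 2, -0.23 with library totals and -0.014 to 0.23. Mrps17 was -0.33 with library totals and -0.057 to 0.11. Replicate numbers run from 1 to 10 without repeats. No paired analysis was possible because no number is shared by the groups. A member's count lay between 26 and 1934 in a library, which limits the precision of the lowest genes.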
